A study of Mus musculus with 18 samples.

Results

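The genes described here are Myc and the genes whose products share its binding partner Max. They are the 3 Myc genes Myc, Mycn and Mycl, the common partner Max, the Mxd genes Mxd1, Mxd3, Mxd4 and Mxi1, and the Max-binding repressors Mnt and Mga. The 10 genes were chosen by name from textbook knowledge of the network, at a time when earlier results of these data were known. They were 10 of the 55487 genes in the tables, and all 10 passed the filter on low counts that kept 15318 genes. RNA was sequenced from WEHI-231 cells, a murine immature B cell lymphoma line, as parental (wild type) cells and as the TFEB-deficient clones #A-59 and #B-20. Each genotype was left untreated (0 h) or was BCR-stimulated by F(ab')2 fragments against mouse IgM (10 µg/ml) during 6 or 18 h, which gave 9 groups with 2 libraries each from 2 independent experiments. The clones were made by electroporation of Cas9 with a guide RNA against Tfeb and grown from single cells, so that each genotype effect below is that of 1 clone and cannot be told apart from clonal differences unrelated to TFEB.

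Myc proteins are transcription factors with a basic helix-loop-helix leucine zipper that bind DNA only as a pair with Max. Myc-Max pairs bind the E-box CACGTG and activate genes of ribosome production, nucleotide synthesis and cell growth. The Mxd proteins, Mnt and Mga compete with Myc for Max and repress from the same sites, the Mxd proteins and Mnt through Sin3 corepressors and Mga as part of a Polycomb complex called PRC1.6. In WEHI-231 cells a late fall of Myc after engagement of surface IgM is a classical event that goes with growth arrest and cell death.

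The E-box is shown because it is the site all these proteins share, and because several network genes carry it next to their own start. The RefSeq promoter sequences of GRCm38.p6, which run from 250 bases before to 50 bases after a start, hold 11 promoters for 9 of the 10 genes, and Myc has no entry. The string CACGTG, which reads the same on both strands, is in 3 of these 11 promoters, those of Mxd4, Mnt and Max, against 7.15% of all 32851 promoters and 9.78% of the promoters of tested genes. Windows of 30 bases around it are printed 5′ to 3′ on the strand of the gene, with the E-box in capitals.
Mxd4: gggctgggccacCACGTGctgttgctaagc
Mnt: ccccacccaagcCACGTGtgcgcgcgcggt
Max: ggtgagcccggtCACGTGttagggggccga
The Mxd4 window is chr5:34187912-34187941 on the minus strand, with the E-box beginning 219 bases before the start. For Mnt it is chr11:74830789-74830818 on the plus strand, beginning 123 bases before the promoter's start and the window holds the outermost start of the gene, position 74830806. For Max it is chr12:76962234-76962263 on the minus strand, and the E-box spans the promoter's start. The outermost start of Max is position 76962323, so that this window lies inside the gene. None of the 11 promoters holds the longer string TCACGTGA, found in 0.974% of all promoters and a form that TFEB and its relatives are known to prefer, and 8 of 11 hold the general form CANNTG, as do 72.3% of all promoters. A match of letters is not a measured binding site.

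The libraries held between 11223588 and 29655262 counts, with a median of 19846544. Levels are CPM, the usual abbreviation for read counts of a gene per 1000000 counts of its library, scaled between libraries by the TMM method. The targeted gene was checked first. Tfeb RNA was at 79.2 to 99.9 CPM in the 6 parental libraries, at 25.5 to 40.5 in those of #A-59 and at 34.2 to 54.1 in those of #B-20, with no overlap between parental cells and either clone. These gene-wide counts do not show the reading frame. Of the 8 B cell markers examined, Ms4a1 varied from 43.2 to 569.0 CPM. The others were at 181.0 CPM or more in every library, with Cd79a between 794 and 1940 CPM. Of 12 markers of other cell types, the T cell, red cell and fibroblast genes and Lyz2 stayed under 1 CPM, Csf1r reached 2.16 CPM, and Hbb-bs and Col3a1 were at 0 in all libraries, but Itgam (0.306 to 26.3 CPM), Pecam1 (20.2 to 160.0 CPM) and Epcam (9.81 to 41.0 CPM) were present. The summed level of these 12 markers was 35 to 38 CPM in untreated and 89.9 to 90.3 in 18 h parental libraries, 95 to 101.0 and 196.0 to 229.0 in #A-59, and 56.1 to 58.1 and 122.0 to 142.0 in #B-20. It thus moved with both stimulation and genotype, and its part in the results was not tested. In bulk RNA, fewer cells of a kind and less RNA per cell cannot be told apart.

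Differences were tested with edgeR over all genes. A differentially expressed gene (DEG) had a log2 fold change beyond 1 or −1 with an FDR under 0.01. A gene is said to have passed at an FDR under 0.01 at any size. At 18 h against 0 h, parental cells had 3 DEGs among the 10 network genes and the clones #A-59 and #B-20 had 2 each, against 10.3%, 8.76% and 4.8% of all genes tested. At 6 h there was none in parental cells (background 2.62%), 1 in #A-59 (1.39%) and none in #B-20 (0.385%), with 5 and 3 at an unadjusted p under 0.05 in parental cells and #B-20. At any size, 5, 5 and 4 network genes passed at 18 h, where 32.6%, 31.8% and 22.8% of all genes did, and 0, 4 and 0 at 6 h, where 7.34%, 6.14% and 1.29% did. With 10 genes these counts are small, and the list as such was not tested. DESeq2 called as many DEGs of the network in each of these comparisons except in #B-20 at 18 h, where it called 3. The p-values rest on the spread between the 2 libraries of independent experiments within groups. This spread was estimated over all 9 groups together, with information shared across genes, and not from the compared libraries alone.

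**Figure D1:**
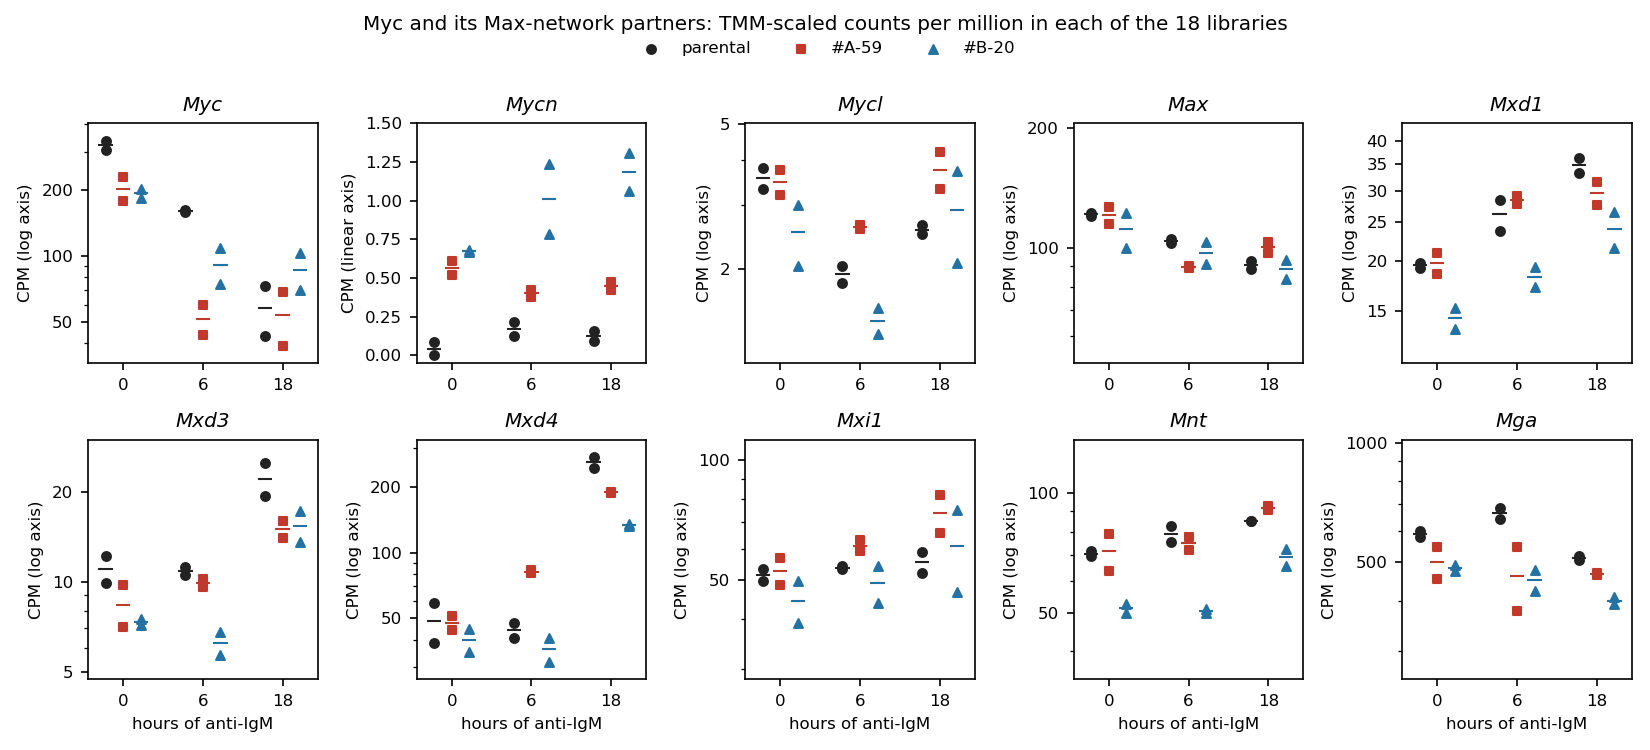
Level of each network gene in each of the 18 libraries, in TMM-scaled CPM, against hours of anti-IgM (parental, black circles; #A-59, red squares; #B-20, blue triangles). Bars are the means of the 2 libraries, the axes are logarithmic and span different ranges except for Mycn, which is on a linear axis. Myc was lower and Mxd4 higher in both 18 h libraries than in both untreated ones in each genotype, while Max stayed between 83.5 and 126.5 CPM.

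Myc RNA fell after BCR stimulation in parental cells and #A-59. Myc lies at chr15:61985341-61990361 (GRCm38, here and below). In parental cells it was at 336.5 and 305.6 CPM untreated, at 162.2 and 158.2 after 6 h and at 72.8 and 43.2 after 18 h. All 4 stimulated libraries were below both untreated ones, and both 18 h libraries were below both 6 h ones. The log2 fold change was −2.48 (SE 0.339, FDR 0.00014) at 18 h, a 5.59-fold fall, and −1.48 (SE 0.332, FDR 0.00341) between 6 and 18 h. At 6 h it was −1.003 (SE 0.317) and did not pass (FDR 0.0674), but with only the parental 0 and 6 h libraries in the fit it did (FDR 8.58e-07). The call between 6 and 18 h was lost without any 1 of 3 libraries, both at 6 h and replicate 2 at 18 h, and without the last of these the log2 fold change was −1.16. With only the compared libraries in the fit, the 18 h difference from 0 h was −2.53 and missed the threshold (FDR 0.0158).

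In #A-59 Myc was as low at 6 h as at 18 h. The levels were 228.8 and 178.1 CPM untreated, 59.8 and 43.7 after 6 h and 68.7 and 38.9 after 18 h. The 6 h and 18 h libraries overlapped, and the log2 fold change between them was 0.05 (SE 0.331). Against 0 h it was −1.97 at 6 h (SE 0.332, FDR 0.00354), where Myc was the only network gene called, and −1.92 at 18 h (SE 0.332, FDR 0.000809). The 6 h call was lost when any 1 of its 4 libraries was left out, at log2 fold changes of −1.77 to −2.23 and FDRs of 0.0185 to 0.0299. The 18 h call was lost with only the compared libraries in the fit (−1.93, FDR 0.0226).

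In #B-20 Myc was also lower after stimulation, but the difference did not pass. Myc was at 202.9 and 185.1 CPM untreated, 108.5 and 74.3 at 6 h and 103.6 and 69.7 at 18 h. Every stimulated library was below both untreated ones, as in the other genotypes. The log2 fold change was −1.08 at 6 h (SE 0.324, FDR 0.127) and −1.16 at 18 h (SE 0.322, FDR 0.017). At 18 h it passed under DESeq2 (FDR 0.00309) and under 4 further settings given with the limits. At 6 h it passed in a fit with a replicate term, also given there.

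Between genotypes, Myc was lower in both clones than in parental cells before stimulation, without overlap, at log2 differences of −0.66 in #A-59 (SE 0.315, FDR 0.222) and −0.73 in #B-20 (SE 0.317, FDR 0.153), neither of which passed. At 6 h #A-59 was lower by 1.62 on the log2 scale (SE 0.329, FDR 0.00311), 1 of 10 network genes called where 7.91% of all genes were. That call too was lost without any 1 of its 4 libraries, at FDRs of 0.0183 to 0.0359. #B-20 was lower by 0.81 (SE 0.321, FDR 0.0997) at 6 h. At 18 h the libraries of both clones overlapped those of parental cells, at log2 differences of −0.09 in #A-59 (SE 0.335) and 0.59 in #B-20 (SE 0.329). The difference between the responses was tested directly and passed in neither clone in the fit without a replicate term: the 18 h response of #B-20 was 1.32 above the parental one on the log2 scale (SE 0.457, FDR 0.244) and the 6 h response of #A-59 was 0.97 below it (−0.97, SE 0.451, FDR 0.379). In a fit with a replicate term the 18 h difference of #B-20 passed, as given with the limits. Without that term no network gene passed in any of these 4 response differences. The shares of all genes that passed were 0.646% (#A-59) and 0.183% (#B-20) at 6 h, and 0.0392% and 0.222% at 18 h. At an unadjusted p under 0.05 the counts of network genes were 2 and 0 at 6 h and 0 and 2 at 18 h, and DESeq2 called none as a DEG.

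Pvt1, the long non-coding RNA gene next to Myc, was lower than in parental cells in both clones before stimulation and at 6 h. It was at 11.4 and 11.8 CPM in untreated parental cells, at 6.30 and 6.94 in #A-59 and at 7.70 and 6.51 in #B-20. The log2 differences were −0.82 (SE 0.151, FDR 0.000719) and −0.71 (SE 0.156, FDR 0.00316). After 18 h it was at 5.35 and 6.48 CPM in parental cells, a log2 change of −0.95 (SE 0.16, FDR 9.14e-05), and at 3.20 to 4.34 CPM in the clones. At 6 h the parental libraries, at 10.9 and 11.99 CPM, and those of #B-20, at 6.10 and 6.99, overlapped the untreated ones of the same genotype. Both #A-59 libraries were at 4.47 CPM, below the untreated ones, without passing (−0.56, SE 0.166, FDR 0.031). Against parental cells at 6 h the log2 difference was −1.36 in #A-59 (SE 0.16, FDR 2.82e-06) and −0.81 in #B-20 (SE 0.156, FDR 0.000766). At 18 h neither difference passed (FDRs 0.0143 and 0.0537).

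The relatives of Myc were scarce. Mycn, the Myc gene of the embryo and of early lymphoid precursors (chr12:12936093-12941836), had 0 and 2 reads in untreated parental cells, 5 and 3 at 6 h and 1 and 3 at 18 h. In #A-59 it had 18 and 10, 10 and 7, and 9 and 7 reads, and in #B-20 10 and 11, 16 and 19, and 30 and 35. Every library of both clones was above every parental one in CPM, but the highest level, 1.31 CPM, was still very low. From summed counts scaled by library size, untreated #B-20 over parental cells gave a ratio of 17.5 (95% exact counting interval 4.28 to 154.0) and untreated #A-59 over parental cells 14.9 (3.75 to 129.0). These rest on 2 parental reads and the intervals cover counting error only.

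With stimulation the ratio for #B-20 was 5.81 (2.65 to 14.5) at 6 h and 9.02 (3.36 to 34.1) at 18 h, and for #A-59 2.34 (0.957 to 6.27) and 3.42 (1.1 to 14.1). In the fit across all genes Mycn was a DEG in #B-20 at all 3 times (FDRs 0.000459, 0.000939 and 0.000336) and in #A-59 only untreated (FDR 0.000659). In the comparison of a clone with parental cells it was the single DEG of the network at 0 h in #A-59 (background 4.78%) and at 0, 6 and 18 h in #B-20 (backgrounds 5.16%, 6.73% and 6.21%). At 18 h #A-59 had no DEG of the network by edgeR or DESeq2 (background 4.92%), and 4 at an unadjusted p under 0.05. Leaving out parental replicate 1 ended both calls at 0 h (FDR 0.0218 in #A-59 and 0.0112 in #B-20). The #A-59 call at 0 h was also lost without replicate 1 of #A-59 (FDR 0.0107) and under DESeq2 (FDR 0.0108). In #B-20 the 6 h call was lost without replicate 2 of either group (FDRs 0.027 and 0.0161) and the 18 h call without parental replicate 2 (FDR 0.0118).

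Mycl (chr4:122995588-123002490), the third Myc gene, was between 1.33 and 4.19 CPM. It was called once, as higher at 18 h than at 6 h in #B-20 (log2 1.02, SE 0.284, FDR 0.00933), with 3.73 and 2.09 CPM against 1.33 and 1.57. Leaving out replicate 1 at 18 h lowered this to 0.53 (FDR 0.227), and DESeq2 did not call it (FDR 0.0143). In parental cells it was at 3.33 and 3.81 CPM untreated and at 1.83 and 2.05 at 6 h, a log2 fold change of −0.87 that did not pass (SE 0.255, FDR 0.0285).

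Max (chr12:76937269-76962323), the partner that Myc proteins need to bind DNA, changed little. In parental cells it was at 120.4 and 122.4 CPM untreated, 105.6 and 103.1 after 6 h and 88.5 and 92.5 after 18 h. The groups did not overlap, and the fall at 18 h passed at a log2 fold change of −0.42 (SE 0.0992, FDR 0.00193). In #A-59 it passed at 6 h (−0.43, SE 0.0986, FDR 0.00699) but not at 18 h (−0.27, SE 0.0986, FDR 0.036), and in #B-20 the value at 18 h was −0.33 (SE 0.0988, FDR 0.0132). Max differed from parental cells in neither clone at any time by more than 0.22 on the log2 scale, and no such difference passed. Over the same libraries Myc ranged from 38.9 to 336.5 CPM.

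Among the Mxd repressors, Mxd4 rose most. Mxd4 (chr5:34176580-34187710), an antagonist of Myc that is known from differentiating and resting cells, was at 38.7 and 59 CPM in untreated parental cells, 40.7 and 47.8 at 6 h, and 244.0 and 273.4 at 18 h. It was high at 18 h and not at 6 h. The log2 fold change was −0.14 at 6 h (SE 0.164, FDR 0.675) and 2.41 at 18 h (SE 0.167, FDR 1.49e-08). Between 6 and 18 h it rose by 2.55 (SE 0.168, FDR 4.17e-09). It kept its calls at 18 h under every alternative and with any library left out.

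In #A-59 Mxd4 was already higher at 6 h. It was at 44.3 and 51.1 CPM untreated, 81.0 and 82.8 after 6 h, then 187.8 and 188.8 after 18 h. At 6 h it was above its untreated level (0.78, SE 0.163, FDR 0.0046) and above parental cells at that time (0.89, SE 0.163, FDR 0.000479), and at 18 h it had risen by 1.98 (SE 0.165, FDR 1.14e-07). The difference between the 6 h responses of #A-59 and parental cells was 0.92 on the log2 scale and did not pass (SE 0.231, FDR 0.052), though without replicate 1 of untreated parental cells it did (1.19, FDR 0.00593). The increase of #A-59 at 6 h over its own 0 h did not pass after a correction for GC content (FDR 0.0114).

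In #B-20 Mxd4 also rose at 18 h, to a lower level than in parental cells. Mxd4 was at 35.3 and 44.8 CPM untreated, 31.7 and 40.5 after 6 h and 135.0 and 131.7 after 18 h. The log2 fold change was −0.15 at 6 h (SE 0.171, FDR 0.74) and 1.74 at 18 h (SE 0.167, FDR 1.57e-06). At 18 h #B-20 was below parental cells by 0.96 (−0.96, SE 0.158, FDR 0.000262), and at 6 h below #A-59 by 1.19 (−1.19, SE 0.167, FDR 6.05e-05), where 1 of the 10 genes was called and 5.82% of all genes. The 18 h order was thus parental, #A-59 and #B-20, with no overlap between neighbours, although #A-59 passed neither against parental cells (−0.46, SE 0.158, FDR 0.0558) nor against #B-20 (#B-20 minus #A-59 −0.50, SE 0.158, FDR 0.0273). The 18 h response of #B-20 differed from the parental one by −0.67, which did not pass (SE 0.23, FDR 0.203).

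Mxd3 (chr13:55325170-55329900), a family member known from dividing cells, rose at 18 h as well. Its levels in parental cells were 12.2 and 9.89 CPM untreated, 10.5 and 11.2 after 6 h and 19.3 and 24.9 after 18 h. The log2 fold change at 18 h was 1.01 in parental cells (SE 0.17, FDR 9.37e-05), 0.82 in #A-59 (SE 0.176, FDR 0.000977) and 1.07 in #B-20 (SE 0.182, FDR 0.000183). The 3 values are close, and only those above 1 count as DEGs. With single libraries left out the parental value ranged from 0.78 to 1.14, at FDRs of at most 0.00763, and was lowest without replicate 2 at 18 h. At 6 h Mxd3 was lower in #B-20, at 5.66 and 6.79 CPM, than in parental cells (−0.81, SE 0.188, FDR 0.00363), a difference that missed the threshold after the GC correction (−0.64, FDR 0.0108). Mxd3 overlaps Prelid1, a gene at 151.4 to 201.1 CPM in the group means, so that unstranded reads from their overlap cannot be assigned with certainty. Prelid1 itself was at 186.9 ± 8.92 CPM (SD, n = 2) untreated and 166.0 ± 9.07 at 18 h in parental cells.

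Mxd1 (chr6:86647044-86669234), the founding Mxd gene, rose by less than 2-fold in each genotype. In parental cells it was at 19.8 and 19.2 CPM untreated, 23.9 and 28.5 after 6 h and 33.3 and 36.3 after 18 h. The log2 fold change at 18 h was 0.84 in parental cells (SE 0.127, FDR 3.16e-05), 0.58 in #A-59 (SE 0.127, FDR 0.00108) and 0.74 in #B-20 (SE 0.133, FDR 0.000295). #B-20 was lower than parental cells at each time, with 13.5 and 15.3 CPM untreated, 19.3 and 17.2 at 6 h, and 26.6 and 21.5 at 18 h. In #A-59 the change at 6 h passed as well (0.53, SE 0.126, FDR 0.00964). The differences between #B-20 and parental cells passed at 6 h (−0.52, FDR 0.00648) and 18 h (−0.53, FDR 0.004) but not at 0 h (−0.44, FDR 0.0288). Mxd1 overlaps Gm38850, as Mxi1 overlaps Gm30541 and Mga overlaps Gm13998, and unstranded reads from these overlaps cannot be told apart.

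Mxi1 (chr19:53310128-53373293), the remaining Mxd gene, did not pass in any comparison. It was between 38.9 and 81.8 CPM, with group means of 51.5, 53.8 and 55.5 in parental cells over time and of 52.7, 61.1 and 73.8 in #A-59. The largest log2 fold change was 0.48 at 18 h in #A-59 (SE 0.179, FDR 0.038). Replicates of #B-20 at 18 h were 74.9 and 46.8 CPM, a wider spread than the differences between genotypes. The 4 Mxd genes therefore did not move alike: Mxd4 by the most, Mxd3 and Mxd1 by 1.5- to 2.1-fold, and Mxi1 by an amount that did not pass.

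**Figure D2:**
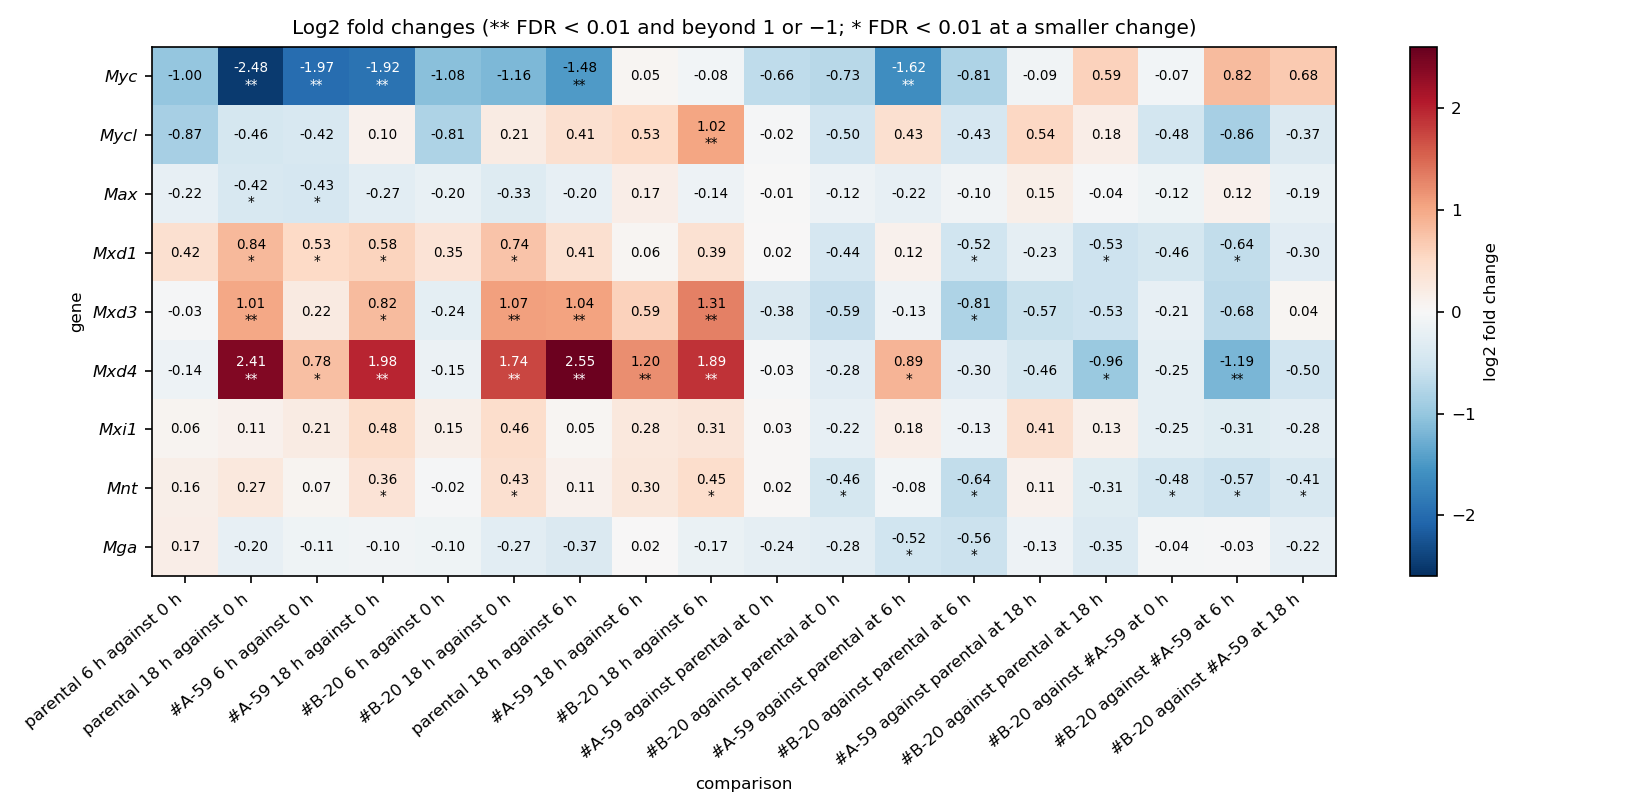
Log2 fold changes of 9 network genes (rows; Mycn is left out because its parental counts are near 0) in 18 comparisons (columns), with red for higher and blue for lower. A pair of asterisks marks a DEG and a single one an FDR under 0.01 at a smaller change. Mxd4 has the deepest red and Myc the deepest blue.

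Mnt (chr11:74830806-74845725), the repressor that pairs with Max in resting and cycling cells alike, was lower in #B-20. It had 50.1 and 52.6 CPM there untreated and 51.0 and 49.96 at 6 h, where parental cells had 71.5 and 69.4, and 82.6 and 75.2, and #A-59 had 79.1 and 63.6, and 77.7 and 71.9. The difference between #B-20 and parental cells was −0.46 at 0 h (SE 0.0993, FDR 0.00282) and −0.64 at 6 h (SE 0.099, FDR 7.64e-05). It was −0.31 at 18 h and did not pass (FDR 0.0297). The 4 libraries of #B-20 at 0 and 6 h also showed a more negative trend of expression with GC content than any other library (Spearman coefficient across genes −0.23 to −0.374), and after correction for it the 0 h difference was −0.12 (FDR 0.379) and that at 6 h −0.4 (FDR 0.00161).

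At 18 h Mnt was up in both clones, by 0.36 in #A-59 (SE 0.0973, FDR 0.0055) and 0.43 in #B-20 (SE 0.0992, FDR 0.00262), and in parental cells by 0.27 without passing (SE 0.0978, FDR 0.0295). The #B-20 value was 0.17 after the GC correction (FDR 0.125).

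Mga (chr2:119872503-119970129) had the highest CPM of the network, 378.1 to 685.5, which in part reflects its long transcript. Parental cells had 580.8 and 599.8 CPM untreated, 642.8 and 685.5 at 6 h and 506.7 and 518.4 at 18 h. No change with stimulation passed. At 6 h both clones were below parental cells, #A-59 with 378.1 and 547.7 CPM (−0.52, SE 0.125, FDR 0.0033) and #B-20 with 480.0 and 423.4 (−0.56, SE 0.125, FDR 0.00289). The low #A-59 library was its replicate 1, the one with the strongest trend with GC content of all libraries (0.471). With the GC correction the values were −0.39 (FDR 0.000935) and −0.69 (FDR 1.85e-06).

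With these, 3 network genes had passed in #A-59 against parental cells at 6 h and 5 in #B-20, where 22.7% and 14.2% of all genes passed. At 0 h the counts were 1 and 2 (9.56% and 10.7%) and at 18 h 0 and 3 (10.4% and 14.2%). Between 6 and 18 h, parental cells and #B-20 each had 3 DEGs of the network and #A-59 had 1 (in the order parental, #A-59 and #B-20, 13.5%, 9.02% and 4.45% of all genes). Between the clones, Mnt was lower in #B-20 at each time, the only network gene that passed at 0 and 18 h, where 8.41% and 16.2% of all genes passed. The clones also differed in their trend with GC content, at 0 h with −0.374 and −0.23 in #B-20 and 0.317 and −0.107 in #A-59. No value with the GC correction is given for these differences between clones.

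Levels of different genes can be compared only per length, here as CPM per kb of the merged exons of each gene. The longest single transcript is shorter, to a degree that differs by gene. It has 4627 bases against 8659 of merged exons for Mxd4, and 2375 against 2730 for Myc. The order of genes below holds for merged exons and depends on this choice. In untreated parental cells Myc led the network with 117.6 CPM per kb (112.0 and 123.3), followed by Mga at 38.4, Max at 28.2, Mnt at 13.3, Mxi1 at 7.11, Mxd4 at 5.64, Mxd3 at 3.999, Mxd1 at 2.67, Mycl at 0.847 and Mycn at 0.00897, with no overlap between neighbours. After 18 h Mga led with 33.4, Mxd4 had moved to the second place with 29.9 and Myc to the third with 21.2. The Myc libraries (15.81 and 26.66) enclosed those of Max, at a mean of 21.0, and of Mnt, at 16.02. In #A-59 at 18 h the order of the means was Mga (30.5), Max (23.4), Mxd4 (21.8), Myc (19.7) and Mnt (17.27). The Myc libraries (14.25 and 25.16) enclosed those of Max, Mxd4 and Mnt, so the place of Myc among these is not settled. In #B-20 Myc was still first at 31.7, though its 2 libraries (25.5 and 37.9) enclosed those of Mga.

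Myc was then set against the sum of Mxd1, Mxd3, Mxd4, Mxi1 and Mnt, per length and with Mga left out, in each library. In untreated parental cells Myc RNA was 3.81 and 3.40 times this sum, at 6 h 1.72 and 1.65 times, and at 18 h 0.424 and 0.227 times. In #A-59 the ratios were 2.45 and 2.20 untreated, 0.556 and 0.406 at 6 h, and 0.421 and 0.248 at 18 h. In #B-20 the ratios were 3.0 and 2.69, 1.56 and 1.09, and 0.788 and 0.592. The ratio was thus above 1 in every untreated library and below 1 in every 18 h library. At 6 h its side of 1 depended on which genes were summed in parental cells and #B-20, and in #B-20 also on the length used. In #A-59 the ratio was below 1 at 6 h both with Mga left out and with Mga in the sum. With Mga in the sum, an alternative chosen after seeing the data, the ratio was below 1 at 6 h in every genotype, at 0.777 and 0.727 in parental cells, 0.342 and 0.213 in #A-59, and 0.701 and 0.518 in #B-20. With Mga the untreated ratios were 1.0 to 1.76.

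The sum itself was 32.4 and 32.9 CPM per kb in untreated and 62.9 and 69.7 in 18 h parental libraries. By merged exon length, Mxd4 made up 13.8% and 20.7% of it before and 44.8% and 45.3% after 18 h of stimulation. At 18 h its share was 36.3% and 37.9% in #A-59 and 32.4% and 35.3% in #B-20. Protein levels and binding to Max were not measured, so the ratio describes RNA only, and it has no test.

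**Figure D3:**
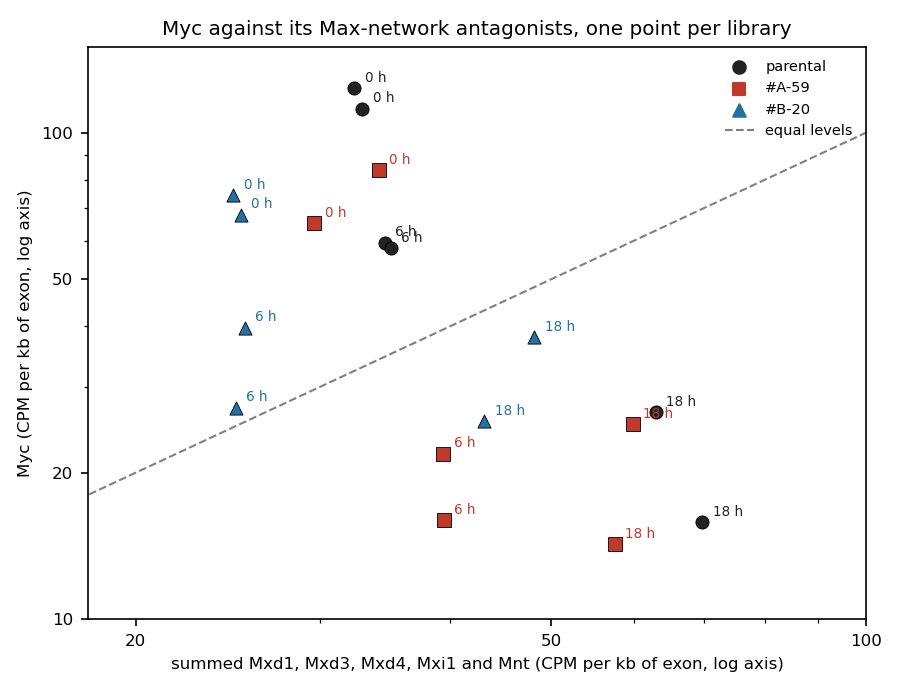
Myc against the sum of Mxd1, Mxd3, Mxd4, Mxi1 and Mnt in each library, with the hours of anti-IgM beside each point. Both are in CPM per kb of merged exons on logarithmic axes, and the side of the line at 6 h in #B-20 depends on this length. Libraries above the dashed line hold more Myc RNA than summed RNA of these 5 genes, Mga not included: all 6 at 0 h lie above it, all 6 at 18 h below it, and at 6 h only those of #A-59 are below.

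Of genes known to be activated by Myc, 68 were listed, mostly factors of ribosome assembly, nucleotide and polyamine synthesis and translation, and all were tested. At 18 h, 65 were lower and 1 was higher at an FDR under 0.01 in parental cells, 61 and 1 in #A-59, and 58 and 0 in #B-20. The background was 16.2% of all genes lower in the parental line, against 17.1% in #A-59 and 11.4% in #B-20. The median log2 fold change of the list was −1.27, −1.27 and −0.88, where that of all genes was 0.04, 0.02 and 0.03. The gene that rose in parental cells and #A-59 was Polr1b, a subunit of RNA polymerase I.

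From this list, 4 genes, Srm, Gnl3, Nolc1 and Slc29a2, are named because they fell the most among the 28 that were DEGs in all 3 genotypes. Srm, which makes spermidine, went from 199.9 and 201.8 CPM to 35.4 and 34.0 in parental cells (log2 −2.53, SE 0.187, FDR 4.08e-08) and changed by −2.39 in #A-59 and −1.64 in #B-20. Gnl3 and Nolc1 encode nucleolar proteins of ribosome assembly and changed by −2.19 and −2.26 in parental cells, −1.94 and −2.04 in #A-59 and −1.48 and −1.39 in #B-20. Slc29a2, a nucleoside transporter, changed by −2.50, −2.24 and −1.39. The values were smallest in #B-20 for these 4 genes, but their responses did not differ from the parental ones in the test (FDRs of 0.0849 to 0.216).

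At 6 h, 1 of the 68 targets in parental cells was lower and 2 were higher (background 4.24% and 3.1%), in #A-59 15 were lower (3.69%) and in #B-20 1 was lower (0.875%). The 15 in #A-59 dropped to 1 when only the compared libraries were fitted. Against parental cells at 6 h, 31 targets were lower and 2 higher in #A-59 (11.3% and 11.4% of all genes), with a list median of −0.38 against −0.01 for all genes. The 5 DEGs among them were Ndufaf4 (−1.51), Slc29a2 (−1.25), Ddx21 (−1.14), Nolc1 (−1.13) and Mphosph10 (−1.02), named after their values were seen. The count of targets that passed in either direction ranged from 17 to 37 with 1 library left out and was lowest without replicate 1 of parental cells at 6 h. At 18 h, 25 targets were higher in #B-20 than in parental cells and none was lower (5.7% and 8.55%), with a list median of 0.42 against 0.01. Among these, likewise named after their values were seen, the DEGs were Slc19a1 (1.29), a folate carrier, Odc1 (1.2), the first enzyme of polyamine synthesis, Gnl3 (1.08), Slc29a2 (1.08) and Tfrc (1.05), the transferrin receptor. This count was 5 without replicate 2 of parental cells at 18 h, 6 without replicate 2 of #B-20 at 18 h and 39 without replicate 1 of #B-20 at 18 h.

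**Figure D4:**
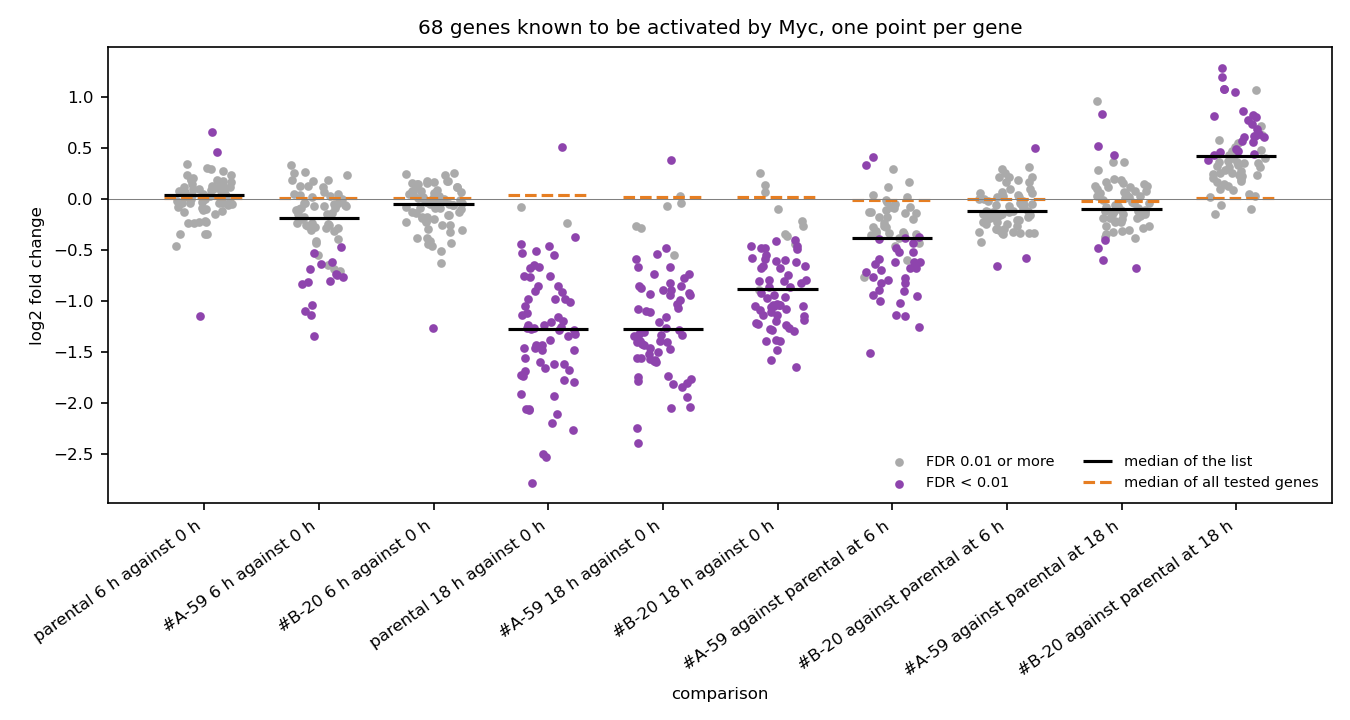
Log2 fold changes of the 68 genes known to be activated by Myc, 1 point per gene, in 10 comparisons, in purple at an FDR under 0.01 and in grey otherwise. Black lines are the medians of the list and dashed orange lines those of all genes tested. The 18 h responses lie mostly below 0 with medians of −1.27, −1.27 and −0.88, and #B-20 against parental cells at 18 h lies mostly above 0 with a median of 0.42.

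The string CACGTG is in the RefSeq promoters of 18 of the 59 target genes that have an entry, or 30.5%, where 11.5% of tested genes with an entry hold it. Genes that Myc is known to repress were few here. Of 5 listed, 4 were tested (Cdkn1a, Cdkn1b, Gadd45a and Ndrg1). Of these, 1 was higher at 18 h in each genotype at an FDR under 0.01. Among all genes, 16.4%, 14.7% and 11.4% were higher in parental, #A-59 and #B-20 cells. The list medians were 0.41, 0.24 and 0.45, and no gene of the list was a DEG. By sign alone, 2 genes were higher and 2 lower in parental cells and in #A-59, and 3 and 1 in #B-20.

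The partners through which the network acts were followed in 4 lists. In the PRC1.6 list, the complex that Mga belongs to, 6 of 10 genes passed as lower at 18 h in each genotype and none as higher, where 16.2%, 17.1% and 11.4% of all genes passed as lower. DEGs were Tfdp1, L3mbtl2 and Pcgf6 in parental cells and Wdr5 and Tfdp1 in #A-59, named after their values were seen. Of all genes, 10.3% and 8.76% were DEGs in these comparisons. The list medians were −0.68, −0.58 and −0.50 in parental, #A-59 and #B-20 cells. Of 11 cofactors of Myc, 4, 5 and 4 passed as lower at 18 h, against the same 16.2%, 17.1% and 11.4%. The DEGs were Ruvbl1, Ruvbl2 and Kat2a in parental cells and #A-59, subunits of chromatin remodelling and histone acetylation complexes, likewise named after their values were seen.

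Of 11 subunits of the Sin3 and NCoR corepressors, 3, 5 and 2 passed as lower and none as higher, with 1 DEG in parental cells, Sap30, named after its values were seen. Of 15 genes that act on the turnover of Myc protein, 4, 5 and 4 passed as lower, with 1 higher in parental cells. For both lists the background was the one just given, with 16.4% of all genes higher in parental cells. The DEG in all genotypes at both 6 and 18 h was Pim1, a kinase known to stabilise Myc and to cooperate with it in lymphoma. Pim1 was at 163.2 and 148.6 CPM in untreated parental cells, 27.1 and 25.8 at 6 h, and 26.3 and 19.97 at 18 h, a log2 fold change of −2.77 at 18 h (SE 0.176, FDR 5.11e-09). In the clones it started lower, at 72.3 to 92.1 CPM, and the differences before stimulation passed in #A-59 (−0.94, FDR 0.00037) and #B-20 (−0.82, FDR 0.00123). Of the relatives that pair with Mlx in place of Max (Mlx, Mlxip and Mlxipl), none passed at 18 h, and Mlxipl, named after its values were seen, was a DEG as higher in #A-59 than in parental cells at 6 h.

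The genes whose log2 CPM followed that of Myc most closely over the 18 libraries, among 8928 genes with a mean of at least 10 CPM and network genes aside, were Irf4 (Pearson r = 0.961), Pim1 (0.91), Rcor2 (0.899), Zdhhc5 (0.893) and Rad54l2 (0.893). The libraries share 9 conditions, so these coefficients describe the pattern over conditions. Irf4, a transcription factor of B cell activation, was at 160.9 and 162.7 CPM in untreated and at 54.3 and 45.7 in 18 h parental libraries. Most opposite were Sars2 (−0.921), Slamf9 (−0.916), Gm12258 (−0.911), Polr1b (−0.91) and Zfp773 (−0.907). Within the network the coefficient with Myc was highest for Max (0.711) and lowest for Mxd4 (−0.709).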

How the data were processed

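RNA of 18 WEHI-231 cultures was sequenced as single-end reads from unstranded poly(A) libraries. The deposited values are whole-number counts of reads per gene, made by the authors with STAR 2.5 and featureCounts 1.5.0-p1 on GRCm38, per the labels. The counting options are not given in the sources used here. Unstranded reads in overlapping genes cannot be told apart. Symbols came from GENCODE vM39 by identifier (93.2% of genes, holding 99.56% of counts), and exon lengths from the same annotation.

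Counts were fitted with edgeR 4.0.16 (quasi-likelihood, robust, TMM, filterByExpr) in R 4.3.3 with limma 3.58.1, as 9 group means over all 18 libraries, with Benjamini-Hochberg adjustment over the 15318 genes in each of 22 comparisons. A DEG had a log2 fold change beyond 1 or −1 with an FDR under 0.01. On simulated data for the 18 h comparison in #A-59 (14831 genes), edgeR called 167 of 200 genes changed by a log2 of 2 and 160 of 200 changed by 1.5, with 2 false calls. Alternatives were DESeq2 1.42.0 with and without shrinkage, its size factors, other filters, only the compared libraries, a replicate block, a GC correction (loess span 0.5) and each library left out. Counts of every replicate pair differed by more than sampling noise.

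The network genes and lists were chosen with earlier results of these data known. Named genes were the network, Tfeb, Pvt1, up to 4 per list and direction that were DEGs in all genotypes at 18 h or in both clones (none met the latter), and the 5 most and least correlated with Myc. List genes named after their values were seen are marked as such in the text. Depth was 11223588 to 29655262 counts, which limits precision for Mycn, at 0 to 35 reads, more than for any other network gene. Figures were drawn with matplotlib 3.10.9 in Python 3.11.15.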

Additional observations from a re-analysis of the deposited data

Results flagged for a closer look

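Slc19a1, a folate carrier on the list of genes activated by Myc, responded to BCR stimulation differently in #B-20 and in parental cells. In edgeR's test of the difference between the 18 h responses it was 1.5 higher in #B-20 on the log2 scale (FDR 0.00179), the only 1 of the 68 targets to pass, while 64 of 68 had a positive difference with a median of 0.40. With single libraries left out the value ranged from 1.29 to 1.69, and the call was lost without replicate 1 of untreated #B-20 (FDR 0.0136), replicate 2 of untreated parental cells (FDR 0.0115) or replicate 2 of parental cells at 18 h (FDR 0.0287). The gene was singled out after its values were seen.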

How the results depend on the processing

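No value changed direction where it was called. Of the counts of network genes and targets and the ratios of Myc to its antagonists, 259 stayed within 1.5 times or 1 SD and 31 moved. With only the compared libraries in the fit, the network had 1 DEG in parental cells at 6 h (0 in the report), 1 at 18 h (3) and 1 in #A-59 at 18 h (2), and the targets that passed were 12 in parental cells at 6 h, 1 in #A-59 at 6 h, 4 in #B-20 at 6 h, 7 in #A-59 and 5 in #B-20 against parental cells at 0 h, 20 and 13 at 6 h, and 12 in #B-20 at 18 h. Without a filter the network DEGs were 1 in parental cells between 6 and 18 h and 0 in #A-59 against parental cells at 6 h, and the targets 5 in #B-20 at 6 h, 8 in #A-59 against parental cells at 0 h, and 7 and 44 in #B-20 at 6 and 18 h. The GC correction gave 2, 5 and 5 targets in #B-20 at 6 h, #A-59 at 0 h and #B-20 against parental cells at 6 h. DESeq2 gave 0 network DEGs and 5 targets in #A-59 at 0 h, and with shrinkage 5 targets there and 1 network DEG in #B-20 at 18 h. Requiring 10 counts in every library removed Mycn and left 0 network DEGs in #A-59 at 0 h and in #B-20 at 0, 6 and 18 h. With Mga in the sum, chosen after seeing the data, the log2 ratio of Myc to its antagonists changed by −1.53 between 0 and 18 h in #B-20 (−2.06 without Mga). The cause of the other moves was not tested.

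With 1 library left out, where the lone sample is assumed to vary like the other groups, the network DEGs were 0 to 1 in #A-59 at 6 h, 1 to 3 in #B-20 at 18 h, 1 to 3 in parental cells between 6 and 18 h, 0 to 1 in #A-59 against parental cells at 0 and 6 h, 0 to 1 in #B-20 at 0 and 6 h and 0 to 2 at 18 h, and 0 to 1 for the 6 h response of #A-59 against the parental one. The targets that passed were 1 to 4 in parental cells and 2 to 18 in #A-59 at 6 h, 0 to 5 in #A-59 and 0 to 4 in #B-20 against parental cells at 0 h, 17 to 37 and 1 to 5 at 6 h, and 1 to 8 and 5 to 39 at 18 h.

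Same-numbered libraries were taken as paired only if their deviations correlated above 0.1 in all 36 pairs of groups. They did so in 14 pairs and above 0 in 34, at −0.0258 to 0.32, so the block was kept as an alternative, and the labels do not say what a number marks. Under the replicate block Myc became a DEG in #B-20 at 6 h (−1.11, FDR 0.00039), at 18 h (−1.19, FDR 1.76e-05) and in the difference between the 18 h responses of #B-20 and parental cells (1.32, FDR 0.00557), which gave 1 network DEG in #B-20 at 6 h and 1 in that difference. Myc was higher in replicate 1 in 9 of 9 groups, as were 203 genes (1.33%), with 201 genes (1.31%) lower in all 9. For Myc in #B-20 at 18 h the FDR was 0.00909 with 10 counts in every library, 0.00742 with only the compared libraries and 0.00949 with the GC correction.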
